A study of Mus musculus with 11 samples.

Results

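The contacts described here join 2 stretches of mouse chromosome 1 that lie on either side of the domain of En1, a homeobox gene needed for dorsal-ventral patterning of the limb and for the midhindbrain region. The left flank runs over chr1:121360001-122470000 and the right flank over chr1:123080001-123470000, in mm9, the build given in the submitters' processing notes. Pairing each of the 111 left bins of 10 kb with each of the 39 right bins gave 4329 bin pairs, of 88410 in a map, at distances of 620 to 2100 kb. They were split into 2145 pairs of an outer left part, the first 550 kb of the left flank, and 2184 pairs of an inner left part, its last 560 kb, next to the En1 domain (chr1:122470001-123080000). The bin pairs were chosen on measured values, because their contact levels stood above the mean of their distance in earlier readings of these same maps. Those levels are therefore given as a description, without a test.

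Capture Hi-C was performed on dissected embryo tissue at embryonic day 9.5: crosslinked chromatin was cut with DpnII, religated and enriched with a custom set of baits, so that each read pair reports a contact. The 11 libraries form 4 groups: 3 of wild-type forelimb, 2 of mutant forelimb, with a stop cassette inserted, 3 of wild-type forebrain and 3 of wild-type midhindbrain boundary. The labels give the same strain, c57bl6.J X 129S6.sv, for all 11 libraries, while wild-type forelimb titles hold the tag CD1, and those library numbers stand apart from the other 8. They give neither the position of the cassette nor whether mutants were homozygous, and the number of embryos in a library is not given in the sources used here. The files hold 1 map per group, with its libraries merged, so there is no replicate spread. The intervals below cover counting error only, and a test here sets the read pairs of one merged map against those of another, which is not a test of the conditions. Tissue, strain tag and library series cannot be told apart for the wild-type forelimb map. In mutant against wild-type forelimb, the cassette likewise cannot be told apart from strain tag and library series.

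Chromatin folds into domains within which contacts are frequent, and boundaries between domains lower contacts across them. Stretches rich in active genes often contact each other over the gene-poor stretch between them, as chromatin of like activity tends to associate. En1 lies in such a gene-poor stretch. In a RefSeq table of a later build, GRCm38.p6, 13 protein-coding genes stand in order from Ralb to Marco, En1 stands alone after them, and 4 follow from Insig2 to Ddx18. Over the lengths of the intervals these are 11.7 genes per Mb on the left, 1.64 per Mb in the En1 domain and 10.3 per Mb on the right. That these genes fill these intervals was taken from their order, since no mm9 annotation was at hand, and no gene is placed in a bin. On the left they include Ralb, a small GTPase, Ptpn4, a protein tyrosine phosphatase, Sctr, the secretin receptor, Dbi, an acyl-CoA binding protein, Steap3, a ferrireductase, and Marco, a macrophage scavenger receptor. On the right, Insig2 is a membrane protein of the endoplasmic reticulum that restrains sterol synthesis, Htr5b is a serotonin receptor gene and Ddx18 is an RNA helicase of the DEAD-box family.

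Promoter sequence is printed for the genes at the ends of both flanks. Its count of CG varies among the flank genes, most of which lie at or above the median of all windows, as given below. The 250 bases before the first start listed in the RefSeq table are given 5′ to 3′ in the direction of the gene, in GRCm38.p6 positions, which cannot be compared with the mm9 positions of the bins. Capitals mark CG, searched as these letters, which read the same on both strands.
Ralb, chr1:119504783-119505032 on the minus strand: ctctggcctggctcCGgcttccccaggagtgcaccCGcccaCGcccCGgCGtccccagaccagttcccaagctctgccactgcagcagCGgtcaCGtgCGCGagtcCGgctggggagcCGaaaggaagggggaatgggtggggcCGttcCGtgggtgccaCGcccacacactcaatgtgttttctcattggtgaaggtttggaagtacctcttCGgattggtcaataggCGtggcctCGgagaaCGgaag
Marco, chr1:120505025-120505274 on the minus strand: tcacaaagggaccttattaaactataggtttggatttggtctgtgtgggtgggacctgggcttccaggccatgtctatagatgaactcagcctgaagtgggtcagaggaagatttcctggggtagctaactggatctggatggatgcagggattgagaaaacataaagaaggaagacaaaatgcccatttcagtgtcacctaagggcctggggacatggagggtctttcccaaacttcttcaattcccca
Insig2, chr1:121332590-121332839 on the minus strand: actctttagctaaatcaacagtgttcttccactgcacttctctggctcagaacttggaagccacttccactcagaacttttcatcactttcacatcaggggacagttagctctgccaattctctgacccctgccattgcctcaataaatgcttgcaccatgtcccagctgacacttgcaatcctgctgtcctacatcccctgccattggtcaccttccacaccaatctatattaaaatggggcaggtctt
Ddx18, chr1:121567981-121568230 on the minus strand: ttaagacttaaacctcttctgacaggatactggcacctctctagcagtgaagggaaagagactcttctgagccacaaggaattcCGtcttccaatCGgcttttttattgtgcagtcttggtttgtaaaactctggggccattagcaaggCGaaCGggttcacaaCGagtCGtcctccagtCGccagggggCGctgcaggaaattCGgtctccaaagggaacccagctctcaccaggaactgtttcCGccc
The Ralb window held 18 CG, that of Ddx18 held 10, and those of Marco and Insig2 held 0. Insig2 has 3 listed starts, whose windows held 0 to 23. A promoter window was listed for 13 of the 17 flank genes. Their median was 18 CG per window against 6 over all 32851 windows of the table, and 10 of the 13 had at least 6. Of all windows, 21.7% held at least the 18 of Ralb and 37.8% at least the 10 of Ddx18. No expression values were used here, so whether any of these promoters is active in forelimb or brain was not tested.

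The maps held 7662227 to 9523316 contacts. At 30 kb or more there were 5471344 in wild-type forelimb, 4215764 in mutant forelimb, 5350268 in forebrain and 5288015 in midhindbrain boundary. Raw contacts of mutant forelimb given below are thus lower from depth as well, which observed over expected and the log2 ratios allow for. Between the flanks lay 164865 contacts in wild-type forelimb, 127460 in mutant forelimb, 146560 in forebrain and 168192 in midhindbrain boundary. A median bin pair between the flanks had 22 to 25 contacts, and 3 to 11 of the 4329 were empty in a map. Levels are given as observed over expected: the balanced (KR) signal summed over a set of bin pairs, divided by the sum of the mean signal of all bin pairs at the same distances in the same map. A value of 1 is the mean of that distance.

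The flanks contacted each other above that mean in all 4 maps. Observed over expected for all 4329 bin pairs was 1.68 in wild-type forelimb, 1.46 in mutant forelimb, 1.62 in forebrain and 1.82 in midhindbrain boundary. Their widest 95% counting interval was 1.81 to 1.83. Because the pairs between the flanks make up 10.2% of the pairs at 620 to 2100 kb, they raise the mean they are set against. With the mean taken over the other pairs, the values were 1.81, 1.53, 1.74 and 2.01 in the same order.

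Most of this came from the inner left part. Inner left with right reached 1.93 in wild-type forelimb (95% counting interval 1.92 to 1.94), 1.68 in mutant forelimb (1.67 to 1.69), 1.83 in forebrain (1.82 to 1.84) and 2.10 in midhindbrain boundary (2.09 to 2.11). Outer left with right stood at 1.14, 1.04, 1.16 and 1.18. The inner part is also nearer to the right flank, so both parts were read at the distances they share, 1180 to 1550 kb, with 741 bin pairs each. There the inner part stood at 1.74, 1.57, 1.68 and 1.96, and the outer part at 1.14, 1.02, 1.14 and 1.19. The inner level was thus 1.69, 1.61, 1.59 and 1.79 times the outer one over all distances, and 1.53, 1.54, 1.47 and 1.65 times at the shared ones.

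The level was spread over the inner bin pairs rather than held by a few. Between 95.1% and 98.4% of the inner pairs lay above 1 in a map, against 52.7% to 65.1% of the outer pairs and 41.7% to 44.9% of all pairs at 620 to 2100 kb. In all 4 maps at once, 1982 of 2184 inner pairs lay above 1, or 90.8%, against 24.1% of the outer pairs and 18.7% of all pairs at those distances. In blocks of 50 kb, all 88 inner blocks exceeded 1 in every map, with medians of 1.88 in wild-type forelimb, 1.61 in mutant forelimb, 1.79 in forebrain and 2.06 in midhindbrain boundary. Of the 88 outer blocks, 61 to 75 exceeded 1, with medians of 1.10 to 1.21. In blocks of 100 kb, all 24 inner blocks and 14 to 17 of the 20 outer blocks did.

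**Figure D1:**
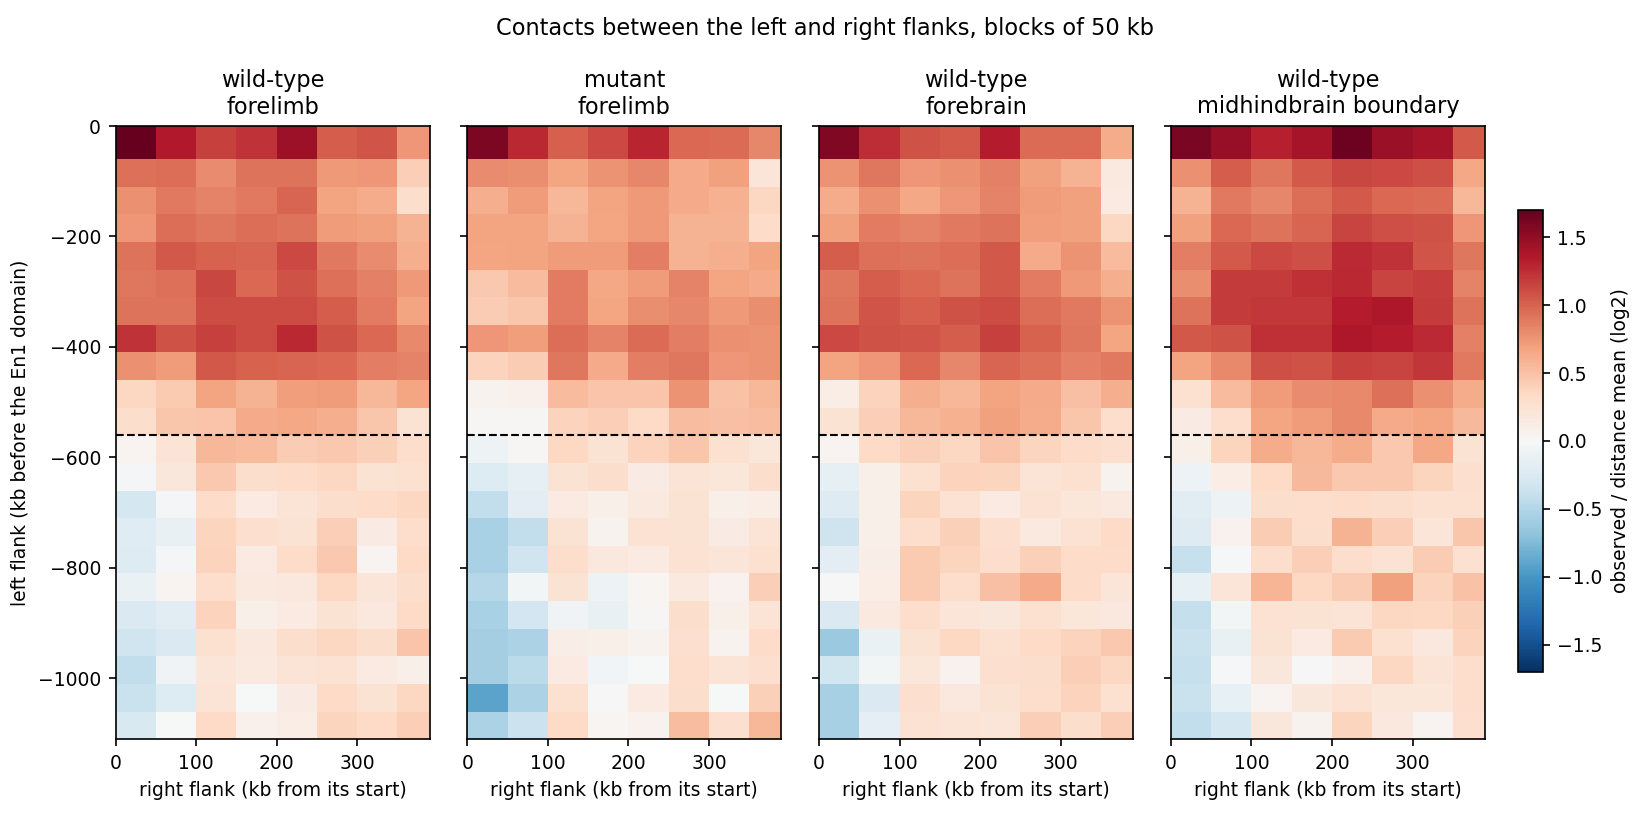
Observed over expected contacts (log2 colour scale) between blocks of 50 kb of the left flank, in kb before the En1 domain, and of the right flank, in kb from its start, in the 4 maps. The dashed line divides inner from outer left; all 88 blocks above it exceed 1 in each map, and the darkest row is the block next to the En1 domain.

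The 3 highest blocks all held the last 60 kb of the left flank, chr1:122410001-122470000, next to the En1 domain. With the first 50 kb of the right flank, chr1:123080001-123130000, it stood at 3.24 in wild-type forelimb, 3.03 in mutant forelimb, 2.98 in forebrain and 3.07 in midhindbrain boundary, on 3909 to 5936 contacts and with counting SDs of up to 0.056. With chr1:123280001-123330000 the values were 2.74, 2.46, 2.52 and 3.19. With chr1:123130001-123180000 they were 2.56, 2.44, 2.39 and 2.79. The same 3 blocks ranked highest in each of the 4 maps. By the mean of the 4 maps, the highest single bin pair joined both inner edges, chr1:122460001-122470000 and chr1:123080001-123090000, 620 kb apart, with 274 contacts in wild-type forelimb, 125 in mutant forelimb, 208 in forebrain and 218 in midhindbrain boundary, or 6.79, 4.61, 5.55 and 5.71 times the distance mean. In each map but wild-type forelimb another right bin stood higher with the same left bin. Such bins were chr1:123110001-123120000 in mutant forelimb, at 5.46 on 167 contacts, and chr1:123090001-123100000 in forebrain, at 6.21 on 264 contacts. In midhindbrain boundary it was chr1:123300001-123310000, at 5.91 on 97 contacts. Counting errors of single bin pairs were not computed, so the order of these pairs within a map was not settled.

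A broader rise lay farther from En1. Going left from the edge, contacts of 50 kb blocks with the right flank fell to 1.74 in wild-type forelimb at chr1:122310001-122360000 and rose again to 2.17 at chr1:122060001-122110000. The corresponding pairs of values were 1.55 and 1.78 in mutant forelimb, 1.61 and 2.05 in forebrain, and 1.81 and 2.29 in midhindbrain boundary. Left of it the level fell within 150 kb to 1.41 in wild-type forelimb in the first 50 kb of the inner part, and to 1.26, 1.41 and 1.47 in the other maps. The steep part of the decline thus lay inside the inner part, and the split made no sharp step, with 1.29 in the 50 kb before it and 1.41 in the 50 kb after it in wild-type forelimb.

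The lowest blocks joined the outer left to the first 50 kb of the right flank. The lowest, chr1:121410001-121460000 with chr1:123080001-123130000, stood at 0.77 in wild-type forelimb, 0.53 in mutant forelimb, 0.68 in forebrain and 0.77 in midhindbrain boundary, on 207 to 280 contacts. The next lowest by the mean of the 4 maps, chr1:121510001-121560000 and chr1:121360001-121410000, with the same right block, stood at 0.65 to 0.79 and 0.68 to 0.83 over the maps. The first 50 kb of the right flank therefore met the inner left at up to 2.02 and the outer left at no more than 0.87. From chr1:123180001-123230000 onward each right block lay above 1 with the outer left in all 4 maps, between 1.06 and 1.32.

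How alike the pattern was between maps was described by the correlation of the 176 block values. Pearson's r ran from 0.917 for mutant forelimb with forebrain to 0.969 for wild-type forelimb with forebrain. It was 0.940 for the forelimb maps. Part of this is the gap between the inner and outer blocks, and within the 88 blocks of each part r was 0.815 to 0.957 in the inner and 0.773 to 0.877 in the outer. Blocks of a flank share bins and distances and are not independent, so no p is given.

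Seen from the right flank, the signal did not fall steadily with distance. Mean KR signal per bin pair was lowest within the En1 domain at 74.5 in wild-type forelimb (chr1:122620001-122670000), 54.3 in mutant forelimb (chr1:122670001-122720000), and 82.3 in forebrain and 85.1 in midhindbrain boundary (both chr1:122870001-122920000). It was higher farther away, at chr1:122410001-122470000, with 104 in wild-type forelimb, 74.8 in mutant forelimb, 91.2 in forebrain and 112 in midhindbrain boundary, each with a counting SD of at most 0.735. Of the 11 inner blocks, this was the 1 block that exceeded the lowest block of the En1 domain in signal.

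The high contacts did not begin at the edge of the left flank. The 50 kb before position 122470001 met the right flank at 2.56 in wild-type forelimb, 2.41 in mutant forelimb, 2.37 in forebrain and 2.88 in midhindbrain boundary, and the 50 kb after it, within the En1 domain, at 3.06, 2.89, 2.71 and 3.20. The first 100 kb of the En1 domain, chr1:122470001-122570000, stood at 2.50, 2.35, 2.38 and 2.68 with the right flank. The rest of the domain stood at 0.83, 0.86, 0.85 and 0.92. The peak of the contacts thus straddled the left edge of the En1 domain, and the name of contacts between gene-dense flanks covers part of it. Where in this peak En1 itself lies was not determined here. At the far end of the right flank the level did step down: its last 50 kb met the whole left flank at 1.43, 1.39, 1.36 and 1.62, and the 50 kb after position 123470001 at 0.96, 0.96, 0.89 and 1.09. At the outer edge of the left flank the step was smaller and of either sign, with 1.07, 1.15, 1.15 and 1.003 in the 50 kb before position 121360001 and 1.12, 1.08, 1.10 and 1.03 in the 50 kb after it. At the start of the right flank, levels with the whole left flank rose from 1.41, 1.22, 1.30 and 1.252 in the last 50 kb of the En1 domain to 1.68, 1.38, 1.59 and 1.58.

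**Figure D2:**
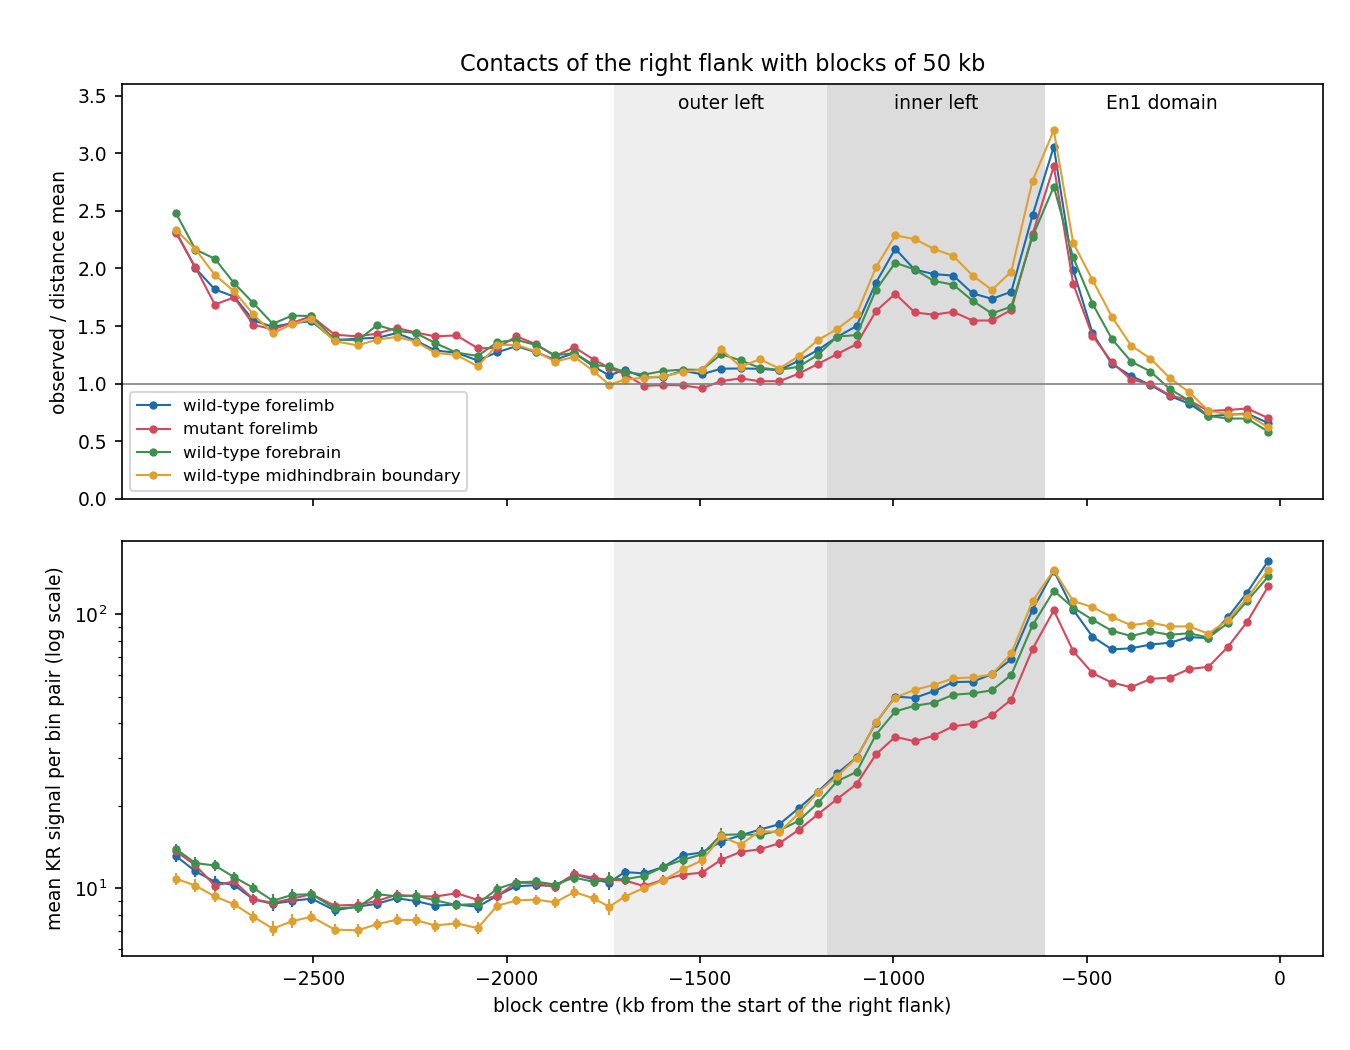
Contacts of the whole right flank with each 50 kb block to its left, as observed over expected (top) and as mean KR signal per bin pair on a log axis with 95% counting intervals (bottom), against the distance of the block centre from the start of the right flank. Shading marks the outer and inner left flank; the peak of 2.71 to 3.20 lies in the first block of the En1 domain, next to the inner left flank.

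The left flank and the En1 domain contacted each other below the distance mean. Inner left with the En1 domain stood at 0.73 in wild-type forelimb, 0.71 in mutant forelimb, 0.75 in forebrain and 0.72 in midhindbrain boundary. Outer left with that domain stood at 0.62, 0.62, 0.61 and 0.58. The outer and inner left, which adjoin, met each other at 0.75, 0.80, 0.73 and 0.72 in the same order. A level below the mean was thus not particular to contacts with the En1 domain. From the inner left, values rose along the domain from 0.54 in its first 50 kb to 1.65 in its last 60 kb in wild-type forelimb, and reached 2.02 in the first block of the right flank. The other maps rose likewise, from 0.56 to 1.45 in mutant forelimb, 0.50 to 1.52 in forebrain and 0.50 to 1.42 in midhindbrain boundary.

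The right flank also met intervals to the left of the left flank above the mean. With the interval farthest to the left, chr1:120200001-120670000, it stood at 1.69 in wild-type forelimb, 1.68 in mutant forelimb, 1.79 in forebrain and 1.72 in midhindbrain boundary, at 2420 to 3260 kb. With chr1:120670001-120980000 it stood at 1.33 to 1.43 and with chr1:120980001-121360000 at 1.21 to 1.29 over the maps. Among the 28 pairs of the 8 intervals of the map, inner left with right ranked highest in wild-type forelimb, forebrain and midhindbrain boundary, and second in mutant forelimb. Over all its distances, 1180 to 2100 kb, outer left with right stood below all 3 of these farther intervals in each map. The gap was least in midhindbrain boundary, at 1.18 (counting SD 0.0068) against 1.21 (counting SD 0.0098) for the nearest of them. That nearest interval lies 1730 to 2480 kb away, and the levels were not compared at shared distances. At 1900 to 2100 kb, where only outer pairs join the flanks, the level was 1.23, 1.23, 1.29 and 1.19. That interval, at all its distances, stood at 1.22, 1.29, 1.27 and 1.21. The stretch to the right of the right flank, chr1:123470001-124400000, met it at 0.60 to 0.68. Contacts above the distance mean over the En1 domain were thus not particular to the left flank.

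**Figure D3:**
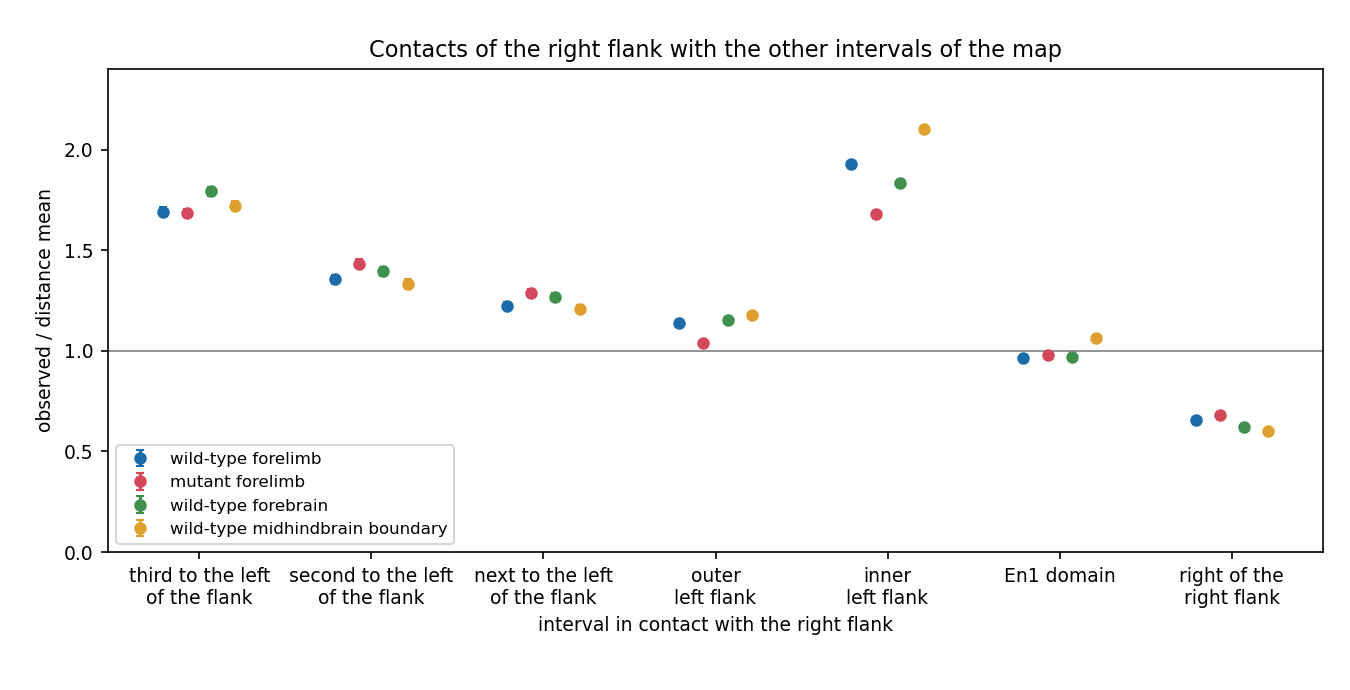
Observed over expected contacts of the right flank with each other interval of the map, from the farthest left to the stretch on its right, in the 4 maps. Bars are 95% counting intervals, mostly smaller than the points; the inner left flank stands at 1.68 to 2.10 and the outer left flank at 1.04 to 1.18.

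Whether the cassette or the tissue goes with another level of these contacts was asked by setting maps against each other. The comparisons of wild-type forelimb with mutant forelimb, forebrain and midhindbrain boundary share the wild-type forelimb map. Bin pairs and blocks were tested over the whole map from 30 to 2100 kb with a two-sided exact binomial test on the raw contacts, given the distance and the KR factors, with Benjamini-Hochberg adjustment. Bin pairs were called when the adjusted p was below 0.05 and the difference 2-fold or more, and blocks of 50 kb when the ratio was at least 5 to 4.

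Mutant forelimb had lower observed over expected between the flanks than wild-type forelimb. The log2 ratio was -0.20 for all pairs (95% counting interval -0.21 to -0.19), -0.20 for the inner left and -0.13 for the outer left. As contacts per 1000000 contacts at 30 kb or more, a scale without the distance mean, the maps had 30234 and 30132, a ratio of 1.003, so the direction rests on the expectation. On that scale the inner pairs stood at a ratio of 0.968 and the outer pairs at 1.14. At the distances both parts share, the log2 ratios of observed over expected were -0.15 for the inner and -0.16 for the outer left. Per 1000000 contacts the ratios at these distances were 1.15 for the inner and 1.10 for the outer left, the opposite direction in both parts. Over the 28 interval pairs the median log2 ratio was 0.049, and inner left with right was second lowest, after outer left with the stretch right of the right flank at -0.23. Right flank with En1 domain stood at 0.023.

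Of the 176 blocks, 154 had a negative log2 ratio, with a median of -0.16 against 0.0093 over all 2494 blocks tested. In mutant forelimb 21 blocks were called lower and 0 higher, or 11.9%, where 10.3% of all blocks tested were called and 13.6% of the other blocks at like distances. The share called is thus close to the background, while the calls of the whole map ran both ways, 168 higher and 90 lower. Of the 21, 15 lay in the first 100 kb of the right flank, where each 50 kb held 22 of the 176 blocks. Where the calls lay was not matched for contacts per block, which differ with distance. The block chr1:122110001-122160000 with chr1:123080001-123130000 had 2054 contacts in wild-type forelimb and 1202 in mutant forelimb, or 1.90 against 1.35 times the distance mean (log2 ratio -0.50, exact binomial test, adjusted p = 2.84e-19). The same left block with chr1:123130001-123180000 had 1688 against 1084 contacts (log2 ratio -0.46, exact binomial test, adjusted p = 1.78e-14). The block chr1:122160001-122210000 with chr1:123080001-123130000 had 1609 against 989 (log2 ratio -0.48, exact binomial test, adjusted p = 1.78e-14). Both brain maps stood near wild-type forelimb in the first of these, at 1.90 and 1.89. The highest block, at the inner edges, stood at 3.24 against 3.03 and was not called.

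The difference lessened toward the far end of the right flank. With the inner left, the log2 ratio stayed between -0.27 and -0.21 over the blocks of chr1:123080001-123330000. It was -0.11 in both blocks of chr1:123330001-123430000 and -0.018 (counting SD 0.025) in the last block. With the outer left the log2 ratio ran from -0.26 in the first block to -0.029 (counting SD 0.040) in the last. At 10 kb, 1 of 3823 bin pairs tested was called lower, where 0.0198% of all bin pairs were called. It joined chr1:122180001-122190000 to chr1:123130001-123140000, with 128 contacts in wild-type forelimb, 44 in mutant forelimb, 99 in forebrain and 88 in midhindbrain boundary (log2 ratio -1.30, exact binomial test, adjusted p = 0.0032).

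The counts of blocks spread more than binomial counts do: over all blocks the squared standardized differences averaged 8.37 in this comparison, where 1 is the binomial value. With the variance of the test raised by that factor, 0 of the 21 blocks and 0 of all 2494 were called. At 10 kb the factor was 1.38, and with it 0 bin pairs between the flanks were called. Replicates, which would show how much of that spread lies between libraries of a group, were merged in these files.

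On observed over expected, wild-type forelimb and forebrain were the closest wild-type pair, while per 1000000 contacts forelimb was closer to midhindbrain boundary. The log2 ratio of forelimb over forebrain was 0.053 for all pairs (95% counting interval 0.043 to 0.063), 0.072 for the inner left and -0.021 for the outer left (-0.043 to 0.0018). For all pairs it was 0.0081 as the median over bin pairs and 0.14 per 1000000 contacts, a scale on which the outer left stood at 0.054, the opposite sign. No bin pair of 3860 and no block of 176 was called, where 0.00721% of all bin pairs and 3.17% of all blocks were. At an unadjusted p under 0.05, by the same exact binomial test, stood 181 bin pairs and 32 blocks, or 4.69% and 18.2%, against 7.19% and 33.6% over everything tested. These shares were not matched for depth, and bin pairs at longer distances hold fewer contacts.

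Midhindbrain boundary had the highest level, and its difference from forebrain was larger in the inner left and toward the far end of the right flank. Midhindbrain boundary over forebrain had a log2 ratio of 0.17 for all pairs (95% counting interval 0.16 to 0.18), 0.199 for the inner left and 0.028 for the outer left. Per 1000000 contacts the ratio was 1.16. With the inner left, the log2 ratio was -0.022 (counting SD 0.016) in the first block of the right flank, 0.12 in the next, 0.37 in both blocks of chr1:123330001-123430000 and 0.29 in the last block. With the outer left, all 8 right blocks lay between -0.029 and 0.085. Of the 176 blocks, 21 were called higher and 0 lower, or 11.9%, where 5.65% of all blocks tested were called and 7.97% of the others at like distances. Of the 21, 19 lay from position 123330001 on, where each right block held 22 of the 176. In the inner left, which held 88 of the 176, lay 20. Where the calls lay was not matched for contacts per block.

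The 3 blocks with the smallest adjusted p lay in the 2 blocks of the left flank nearest to the En1 domain. The block chr1:122410001-122470000 with chr1:123330001-123380000 had 2838 contacts in midhindbrain boundary and 1884 in forebrain, or 2.75 against 1.95 times the distance mean (log2 ratio 0.51, exact binomial test, adjusted p = 6.92e-31). With chr1:123380001-123430000 it had 2719 against 1891 (log2 ratio 0.46, exact binomial test, adjusted p = 7.91e-24). The block chr1:122360001-122410000 with chr1:123380001-123430000 had 2224 against 1530 (log2 ratio 0.5005, exact binomial test, adjusted p = 1.79e-23). With the variance raised by the factor of this comparison, 5.89, 7 blocks between the flanks were called higher, all among the 21, and 14 in the whole map. At 10 kb, 3 of 3836 bin pairs were called higher, where 0.011% of all were. They joined chr1:122400001-122410000 and chr1:122420001-122430000 to chr1:123330001-123340000, with 109 against 52 and 82 against 35 contacts, and chr1:122300001-122310000 to chr1:123350001-123360000, with 83 against 36. The largest of their adjusted p was 0.041 by the exact binomial test, and with p adjusted over pairs 620 to 2100 kb apart alone, or with the variance raised by 1.26, 0 were called.

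Wild-type forelimb over midhindbrain boundary showed the same stretch of the right flank, and shares the midhindbrain boundary map with the comparison above. The log2 ratio was -0.12 for all pairs, -0.13 for the inner left and -0.049 for the outer left. Per 1000000 contacts the log2 ratios were -0.078, -0.11 and 0.034, so that of the outer left turned sign. With the inner left, the log2 ratio of observed over expected was 0.103 (counting SD 0.016) in the first block of the right flank and -0.31 and -0.32 in the blocks of chr1:123330001-123430000. Of the 176 blocks, 9 were called lower in forelimb and 0 higher, or 5.11%, where 7.66% of all blocks were called and 10.1% of the others at like distances. All 9 lay in the inner left, which held 88 of the 176, and from position 123330001 on, where each right block held 22. The first was chr1:122410001-122470000 with chr1:123330001-123380000, with 2293 contacts in forelimb and 2838 in midhindbrain boundary (log2 ratio -0.42, exact binomial test, adjusted p = 1.14e-23). The next were chr1:122360001-122410000 with the same right block, at 1870 against 2297 contacts, and chr1:122410001-122470000 with chr1:123380001-123430000, at 2336 against 2719. Raising the variance by the factor of 8.76 left 0 of the 9, while 15 of all 2494 blocks in the map were called. At 10 kb, 1 of 3845 bin pairs was called lower, where 0.0362% of all were: chr1:122460001-122470000 with chr1:123360001-123370000, with 48 contacts in forelimb, 49 in mutant forelimb, 60 in forebrain and 102 in midhindbrain boundary (exact binomial test, adjusted p = 0.0032). With the variance raised by 1.445, its factor at 10 kb, 0 were called.

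**Figure D4:**
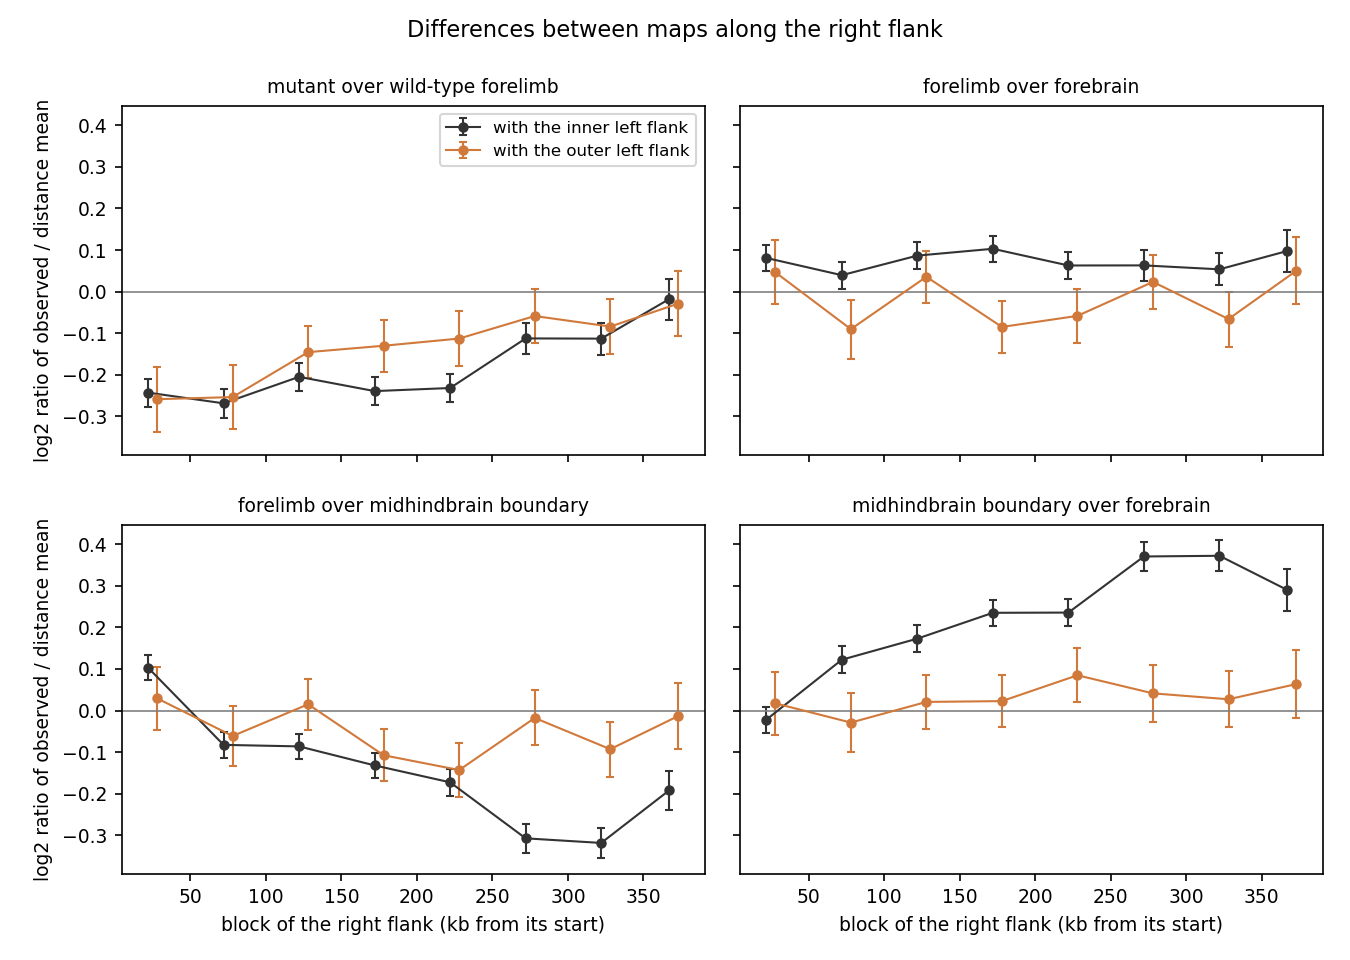
Log2 ratio of observed over expected between maps for each block of the right flank (kb from its start), with the inner left (dark) and outer left (orange), in the 4 comparisons; bars are 95% counting intervals. With the inner left, mutant over wild-type forelimb lies between -0.27 and -0.21 in chr1:123080001-123330000 and is less negative beyond it. Midhindbrain boundary over forebrain is highest, at 0.37, in the inner pairs near the end of the right flank.

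Contacts of the right flank with the En1 domain moved with this: midhindbrain boundary over forebrain stood at 0.13 on the log2 scale there, and inner left with the stretch right of the right flank at 0.28, the highest of the 28 interval pairs. Midhindbrain boundary thus differed from forebrain over a wider area than the flanks, of which inner left with right was the second highest, at 0.199.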

How the data were processed

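Capture Hi-C maps of 4 groups (11 libraries at embryonic day 9.5) were used, 1 merged map per group. Per the labels, the names of the maps mention HiCUP, MAPQ 30, KR balancing and bins of 10 kb. The submitters' processing notes name Bowtie2 2.3.4.1, Juicer 1.7.6 and mm9, without their roles. Raw maps were deposited as contact counts, without the empty bin pairs, which were read as 0. The deposited KR maps hold a balanced contact signal. It was checked, within a tolerance of 1e-05, that the signal equals the count over the product of 2 bin factors and sums to the same total in every bin, so balancing also removes a true gain or loss of a whole bin. Whether duplicate read pairs remain is not given in the sources used here, and read pairs may not be independent molecules.

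The bin pairs, intervals and tests were chosen with earlier results of these data known. In numpy 2.4.6 and scipy 1.17.1 under Python 3.11.15, observed over expected was the summed KR signal over the summed distance means. Its counting SD came from Poisson error of the raw counts, with the KR factors held and the error of the distance means included. Intervals are at 95%. Tests covered bin pairs and blocks whose counts in both maps came to 20 or more, with a prior count of 0.5 in log2 ratios. The tests were checked on simulated Poisson counts. These lack the wider spread of the real blocks, so false calls at that spread were not assessed. The last block of the inner left flank is 60 kb long and that of the right flank 40 kb. edgeR was not used, since 1 map per group leaves no replicates. Regions were named by a rule: the 3 highest and 3 lowest blocks of 50 kb by the mean of the 4 maps, and up to 3 called bin pairs and blocks per direction and comparison, by adjusted p. Single bin pairs by level, and blocks along the profile, were named after their values were seen.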

Additional observations from a re-analysis of the deposited data

How the results depend on the processing

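No paired analysis was possible because the replicates of each group were merged into 1 map, and for the same reason no replicate could be left out. In the order wild-type forelimb, mutant forelimb, forebrain and midhindbrain boundary, observed over expected between the flanks was 1.78, 1.57, 1.69 and 1.96 with raw counts, 1.81, 1.53, 1.74 and 2.01 with the distance mean taken over the other pairs, and 1.47, 1.32, 1.46 and 1.56 as the median over bin pairs. With both flanks shortened by 50 kb at each end it was 1.65, 1.42 and 1.61, and within the counting interval in midhindbrain boundary, and without the 5% of bins with fewest contacts it was 1.83 in midhindbrain boundary and within the interval elsewhere. It stayed above 1 in all of these. The log2 ratio of mutant over wild-type forelimb was -0.18, -0.24, -0.15 and -0.22 under the first 4 of these settings, and 0.0049, the opposite sign, as contacts per 1000000 contacts at 30 kb or more, a scale added after seeing the data that uses no distance expectation. Forelimb over forebrain was 0.075 with raw counts, 0.0081 as the median, 0.038 with shortened flanks and 0.14 per 1000000. Forelimb over midhindbrain boundary was -0.14 with raw counts, -0.15 without the pairs in the mean, -0.085 as the median, -0.14 with shortened flanks and -0.078 per 1000000. Midhindbrain boundary over forebrain was 0.21 with raw counts and without the pairs in the mean, 0.093 as the median and 0.22 per 1000000. Between the flanks, raising the variance left 0 called bin pairs in all 4 comparisons. It left 0 called blocks there in all but midhindbrain boundary over forebrain, which had 7. Without KR factors, 2 bin pairs were called in mutant over wild-type forelimb, 2 in forelimb over midhindbrain boundary, 5 in midhindbrain boundary over forebrain and 0 in forelimb over forebrain, where 2 blocks were called. Of the called blocks, 12 of 21 were kept in mutant over wild-type forelimb (17 called, 1 of them higher), 4 of 9 in forelimb over midhindbrain boundary (7 called) and all 21 in midhindbrain boundary over forebrain (23 called). Adjusting over 620 to 2100 kb alone left 0 bin pairs in midhindbrain boundary over forebrain. Minimum counts of 10 and 50 changed no count of calls between the flanks. Bin pairs of the outer part had medians of 13 to 15 contacts.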
